A study of Rattus norvegicus with 8 samples.

Results

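HuR, encoded by Elavl1, and 9 other proteins that bind AU-rich elements were followed at the RNA level in rat nucleus pulposus cells after HuR knockdown. The genes were chosen by name (Elavl1, Elavl2, Zfp36, Zfp36l1, Zfp36l2, Hnrnpd, Hnrnpdl, Khsrp, Tia1 and Tial1). Of these 10, 9 were found by symbol among the 13536 rows of the authors' table of all genes, and Zfp36l2 is not analysed here. The primary cells were grown out from explants of Wistar rat spines in medium with 10% fetal bovine serum. In 4 libraries the cells carried a lentiviral non-target hairpin in the PLKO.1 vector (ShCTR), and in 4 they carried a hairpin against HuR (ShHuR). All 8 cultures, controls included, were kept at 1% oxygen for the 24 h before collection, so no normoxic level can be given. The hairpin reduces HuR and does not delete its gene, and the labels do not say how many animals or hairpin sequences were used.

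An AU-rich element is a run of adenines and uridines, often in the untranslated end of an mRNA, that sets how long the message lasts. HuR is known to bind such elements and to stabilise the mRNA. The ZFP36 proteins and KSRP recruit enzymes that remove the poly(A) tail and degrade it, AUF1 (Hnrnpd) can act either way, and TIA1 and TIAR hold translation back. Several of these proteins are known to bind one another's mRNAs.

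Depth, as reads recovered from the authors' values, ran from 9096738 to 12179515 in ShCTR and from 6797360 to 8038192 in ShHuR, so the knockdown libraries were the shallower ones. Values are given as the authors' normalized counts, which are not divided by gene length, so levels were not compared between genes. Libraries with the same replicate number deviated together in both groups and are called a pair. A gene is said to have risen or fallen when limma with replicate number as a block gave it an adjusted p (Benjamini-Hochberg over 11847 tested genes) under 0.05. That fit called 1802 genes, 15.2% of those tested, made up of 7.16% higher and 8.05% lower after knockdown. Of the genes tested, edgeR with the block called 15.6% (7.03% higher, 8.54% lower) and DESeq2 with the block 17.3% (8.29% higher, 9.04% lower). Dropping the block left 0 calls in limma, where 978 genes had an unadjusted p under 0.05, 0 in edgeR, where 1010 had, and 248 in DESeq2. Leaving out pair 1 the blocked limma fit called 23.9% (11.3% higher, 12.6% lower), leaving out pair 2 it called 0.523% (0.16% higher, 0.363% lower), and leaving out pair 3 it called 4.41% (1.73% higher, 2.68% lower). Leaving out pair 4 it called 0, while 2937 genes had an unadjusted p under 0.05, so no call below held in that fit. Whether replicates were separate animals or cultures is not in the labels, and the p-values therefore reflect only how much these samples varied, which may be technical. Of 14 nucleus pulposus and notochord markers 10 were found and 9 tested. With all pairs 2 fell (Acan and Car12) and 0 rose, and without pair 1 there were 2 lower calls and 1 higher call. Without pairs 2, 3 and 4 in turn there were 1, 1 and 0 lower calls and 0 higher calls. The summed level of the markers found was 599.0 to 1366 in ShCTR and 374.7 to 1152 in ShHuR. Acan reached 72.6 to 449.3 normalized counts in ShCTR and Foxf1 68.2 to 122.4, while Col2a1 stood at 21.0 or below in ShCTR and 3.04 or below in ShHuR. Of 4 tested fibroblast and annulus fibrosus markers 3 fell (Col1a1, Col3a1 and Pdgfrb), and Twist1 did not pass. Without pair 1 there were 3 lower calls and 1 higher call among the 4. Without pairs 2, 3 and 4 in turn there were 1, 3 and 0 lower calls and 0 higher calls. The 4 markers together summed to 37558 to 81413 in ShCTR and 7300 to 38062 in ShHuR. Col1a1 was at 23002 to 44777 in ShCTR and at 2444 to 20117 in ShHuR, without overlap. The leukocyte genes Cd68 and Csf1r together ran from 24.2 to 573.5 in ShCTR and from 22.2 to 664.0 in ShHuR, the endothelial gene Tek reached no more than 14.6 in any library. The skeletal muscle markers found summed to 280.5 to 1096 in ShCTR and 139.8 to 1468 in ShHuR. Of these only Des was tested, and it did not pass (−0.59 on the log2 scale). There was 1 lower call without pair 1 and 0 without any other pair. The part of any such cells in the results was not tested.

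Elavl1 (ENSRNOG00000001069) fell in all 4 pairs and had the lowest log2 change of all 11847 tested genes. The 4 control libraries, in order of replicate, gave 554.8, 699.3, 582.5 and 644.3 normalized counts, and the knockdown libraries gave 63.8, 6.06, 8.36 and 49.6. The groups did not overlap, which 5.6% of tested genes shared (3.09% with the knockdown lower, 2.52% with it higher). In bulk RNA, fewer cells with the transcript and less of it per cell cannot be told apart. The knockdown libraries themselves stood apart in a lower couple, replicates 2 and 3, and an upper couple, replicates 1 and 4. The lower couple rests on 6 and 8 reads, the upper on 42 and 49. The log2 change was −4.84 (SE 0.55, 95% interval −6.12 to −3.56; limma with the block, adjusted p = 0.00663, and 0.126 without the block). The exact permutation test of the 4 against 4 values, two-sided, gave p = 0.0286, the smallest this design can give. Without pair 4 the log2 value was −5.23 and the adjusted p in limma with the block 0.0549.

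The size of the Elavl1 fall depends on how it is summarised. The ratio of the group means corresponds to a log2 value of −4.28, and the largest single-pair change, in pair 2, was −6.63 against −3.10 in pair 1. The authors' deposited table gives a log2 fold change of −1.82 (adjusted p = 3.96e-05), much smaller than their own normalized values give. Whether the authors shrank their fold changes is not stated, so −1.82 is not used here as a measure of the knockdown. For the other 8 genes the log2 fold changes in the authors' deposited table run from −0.05 for Hnrnpd to 0.67 for Zfp36, with 0.56 for Hnrnpdl (adjusted p = 0.000591). DESeq2 on the recovered reads gave Elavl1 −4.29 without the block and −4.88 with it.

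**Figure D1:**
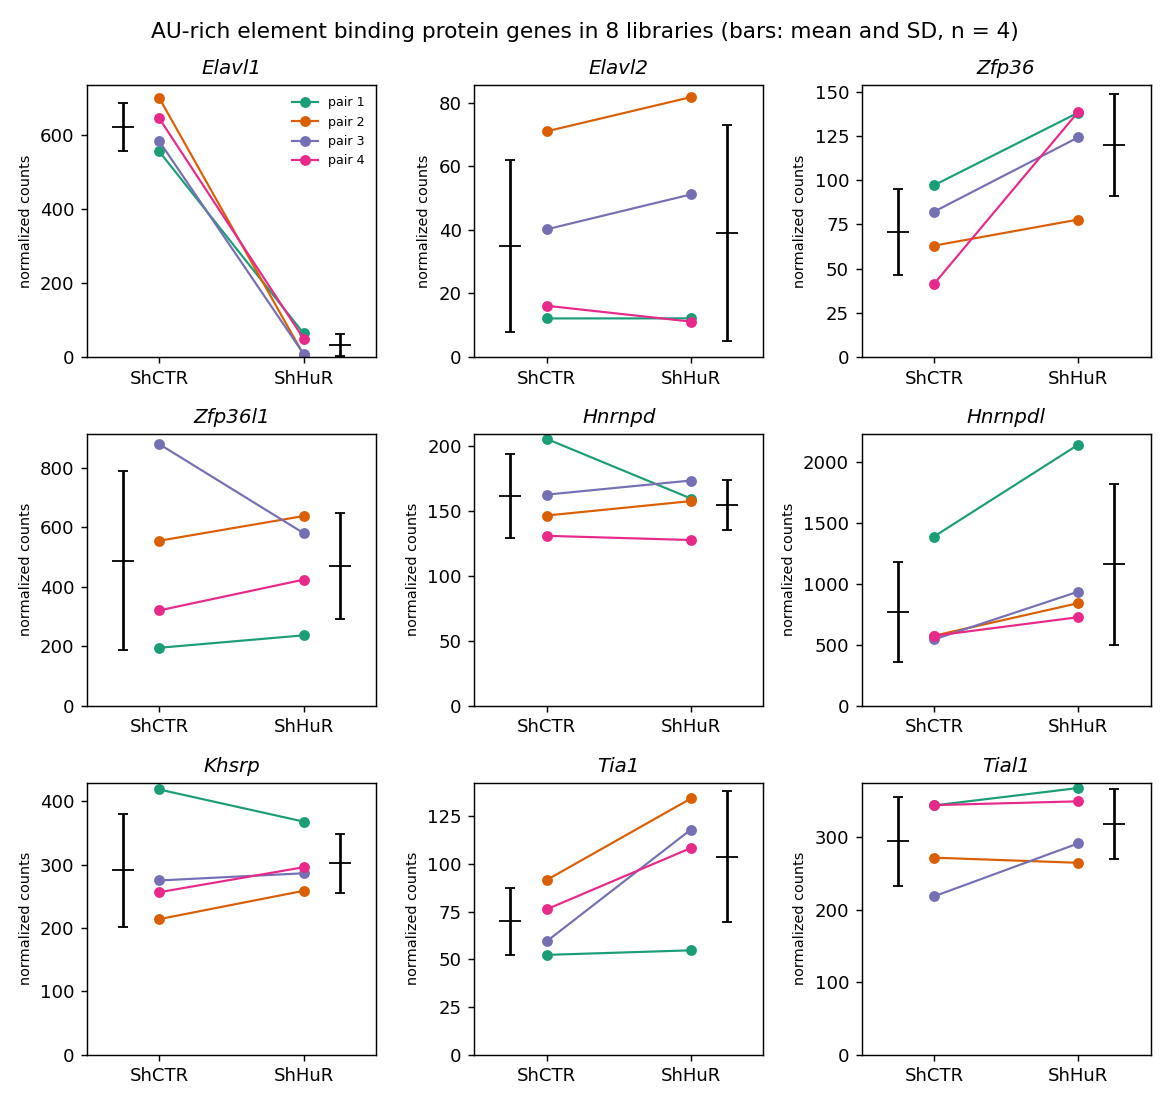
Normalized counts (linear axes from 0) of the 9 genes in each ShCTR and ShHuR library, with lines joining libraries of the same replicate number and black marks for the group mean and SD (n = 4). Elavl1 drops from 554.8 or more to 63.8 or less, Zfp36, Hnrnpdl and Tia1 slope upwards in all 4 pairs, and Elavl2 and Zfp36l1 differ more between pairs than between groups.

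Elavl2 encodes HuB, a paralog of HuR best known from neurons and gonads. Normalized counts read 12.1, 71.0, 40.2 and 16.1 across the controls and 12.2, 81.8, 51.2 and 11.1 across the matching knockdown libraries. Pairs 2 and 3 were high and pairs 1 and 4 low in both groups, and the groups overlapped throughout. Between 8 and 97 reads lay behind each value. The log2 change was 0.01 with an interval of −0.53 to 0.55 (limma with the block, adjusted p = 0.976), that is between 0.694 and 1.47 times the control level.

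Counting Elavl1, the hairpin's own target, 2 of 9 genes passed, beside the background of 15.2%. The only other gene to pass was Hnrnpdl. It encodes an hnRNP closely related to AUF1 that binds AU-rich RNA and also acts in splicing. Controls 1 to 4 held 1388, 574.8, 544.2 and 574.4 normalized counts, and knockdown libraries 1 to 4 held 2143, 842.3, 936.9 and 727.1. Replicate 1 stood far above the others in both groups, so the groups overlapped, yet the ShHuR library was higher in each pair, at 154.4%, 146.5%, 172.2% and 126.6% of its control. Hnrnpdl rose by 0.57 on the log2 scale (SE 0.11, 95% interval 0.33 to 0.82; limma with the block, adjusted p = 0.0188, edgeR with the block 0.019, DESeq2 with the block 0.000766). The adjusted p in limma was 0.79 without the block, where leaving out 1 library moved the log2 value between 0.23 (without ShHuR replicate 1) and 0.90 (without ShCTR replicate 1). With the block it was 0.0159 without pair 1, but 0.0974, 0.0549 and 0.0744 without pairs 2, 3 and 4.

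Hnrnpd, the AUF1 gene, did not pass. The 4 control libraries, in order of replicate, gave 205.5, 146.4, 162.5 and 130.8 normalized counts of Hnrnpd, and the knockdown libraries gave 159.5, 157.5, 173.4 and 127.6. The groups overlapped, and 2 pairs were higher and 2 lower. The log2 change was −0.05 with an interval of −0.36 to 0.26 (limma with the block, adjusted p = 0.812). In pairs 1 to 4 the log2 change of Hnrnpdl exceeded that of Hnrnpd by 0.99, 0.45, 0.69 and 0.38, a mean of 0.63 ± 0.28 (SD, n = 4). The difference was positive in 4 of 4 pairs, and the two-sided exact sign-flip test returned p = 0.125, its lowest possible value with 4 pairs.

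Hnrnpdl and Hnrnpd lie next to each other on rat chromosome 14 in the RefSeq GRCr8 assembly with 0 annotated genes between them. Stretches of their promoters are shown because Hnrnpdl passed and its neighbouring paralog did not, although the difference between them had a p of 0.125 in the exact test. In the RefSeq windows of 250 bases before a start, theirs were the only ones among 11 windows of the 10 genes with the palindrome CACGTG, an E-box, searched on both strands. Each stretch of 30 bases is written 5′ to 3′ on the plus strand with the E-box in capitals.
Hnrnpdl, chr14:9861579-9861608: gcaggcccagacCACGTGggcagtcggagg
Hnrnpd, chr14:9919697-9919726: gcgctctggagtCACGTGaccgggacgcgc
The motif begins 125 bases before the Hnrnpdl start and 48 bases before the Hnrnpd start. It was picked after the sequences had been read, and 5.59% of all 33469 such windows hold it. The motifs CCAAT and TATAAA were searched too. CCAAT was found for 7 of the 10 genes, Hnrnpdl among them but not Hnrnpd, and in 34.0% of all windows. TATAAA was found for 4, Hnrnpdl and Hnrnpd among them, and in 12.9% of all windows. Since both genes carry CACGTG, it does not set them apart, and the matches describe letters only.

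Zfp36 encodes tristetraprolin, the best-known destabiliser of AU-rich mRNAs. Its normalized counts read 97.1, 63.0, 82.2 and 41.2 across the controls and 138.3, 77.8, 124.3 and 138.7 across the matching knockdown libraries. Each ShHuR library was above its own control, but replicate 2 of ShHuR lay below 2 of the ShCTR values, so the groups overlapped. The log2 change was 0.78 (SE 0.24, 95% interval 0.22 to 1.34), and Zfp36 did not pass (adjusted p = 0.0665 in blocked limma, 0.0717 in blocked edgeR). DESeq2 with the block gave 0.0414, and limma with the block gave 0.037 after each library was scaled to the same total. That scaling moved the median of all tested genes from 0.01 to 0.13 on the log2 scale and Zfp36 from 0.78 to 0.90. Pair 4 moved most, by 1.73 against 0.30 to 0.59 in the other pairs. Without pair 4 the log2 value was 0.47 (limma with the block, adjusted p = 0.174).

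Zfp36l1, the second tristetraprolin-type gene, varied widely between pairs. Controls 1 to 4 held 195.2, 555.0, 880.2 and 320.8 normalized counts, and knockdown libraries 1 to 4 held 237.0, 638.3, 580.7 and 424.3. Replicate 1 was lowest in both groups, and the groups overlapped. Zfp36l1 was higher in 3 pairs and lower in pair 3, with a log2 value there of −0.60. The log2 change over all pairs was 0.07 with an interval of −0.32 to 0.46 (limma with the block, adjusted p = 0.793). Leaving out pair 3 put it at 0.29 (adjusted p = 0.176 in the same fit).

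Khsrp encodes KSRP, which carries AU-rich mRNAs to decay enzymes through its KH domains. The 4 control libraries, in order of replicate, gave 418.4, 213.8, 274.8 and 256.3 normalized counts, and the knockdown libraries gave 367.7, 258.5, 286.2 and 295.7. The ShHuR values all lay within the ShCTR range. The log2 change was 0.09 with an interval of −0.18 to 0.36 (limma with the block, adjusted p = 0.627).

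Tia1 and Tial1 encode TIA1 and TIAR, related proteins of stress granules that repress translation. Normalized counts of Tia1 read 52.3, 91.5, 59.3 and 76.2 across the controls and 54.7, 134.3, 118.0 and 108.4 across the matching knockdown libraries. Replicates 2, 3 and 4 of ShHuR lay above every ShCTR value, while replicate 1 was near its control. The log2 change of Tia1 was 0.52 (SE 0.18, 95% interval 0.10 to 0.94), and it did not pass (adjusted p = 0.0881 in limma with the block, 0.0799 in edgeR and 0.0958 in DESeq2, both with the block). Without pair 1 Tia1 had a log2 value of 0.68 and passed limma with the block (adjusted p = 0.0307), in a fit that called 23.9% of all tested genes.

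Controls 1 to 4 held 343.7, 271.7, 218.2 and 344.1 normalized counts of Tial1, and knockdown libraries 1 to 4 held 367.7, 264.6, 291.4 and 349.4. The groups overlapped over most of their range. The log2 change of Tial1 was 0.12 with an interval of −0.15 to 0.39 (limma with the block, adjusted p = 0.48).

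**Figure D2:**
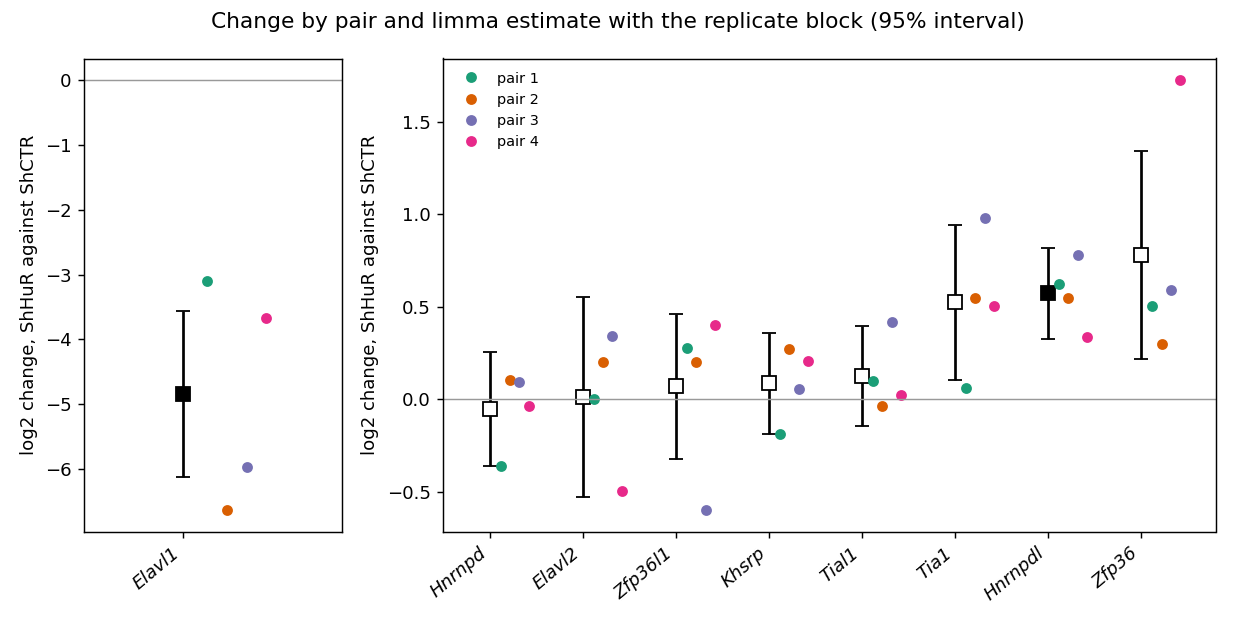
Log2 change of ShHuR against ShCTR for Elavl1 (left axis) and the other 8 genes (right axis, different scale); coloured points are the 4 pairs, squares the limma estimate with the replicate block and bars its 95% interval, with filled squares for an adjusted p under 0.05. Elavl1 lies between −3.10 and −6.63, Hnrnpdl is the only filled square on the right, and one Zfp36 point, pair 4 at 1.73, stands away from the rest.

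Higher values in all 4 pairs were seen for 3 of the 9 genes, Zfp36, Hnrnpdl and Tia1, and for 22.3% of all tested genes. Lower values in all 4 pairs were seen for Elavl1 and for 19.4% of all tested genes. The median log2 change was 0.09 over the 9 genes and 0.11 without Elavl1, beside 0.01 over all tested genes. As raw sums of squares, replicate number took up more of the variation than group in 7 of the 9 genes. Replicate number has 4 levels and group 2, so number takes the larger share on average even where neither has an effect. The shares are therefore a description and do not rank number against group. Number took up 97.9% of the sum of squares for Elavl2, 91.8% for Zfp36l1, 88.1% for Khsrp and 79.0% for Hnrnpdl, against 76.4% over all tested genes together. Group took up 85.2% for Elavl1 and 48.2% for Zfp36, where number took up 6.76% and 27.3%. Over all tested genes together group took up 14.7%, so there too number took up more than group.

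Genes whose levels ran most like Elavl1 over the 8 libraries were ranked by Pearson's r of log2(value + 1) among 8278 genes with a mean of at least 100. The closest were Cmtm4 (r = 0.99), Cbfb, which encodes the partner subunit of RUNX factors (0.98), Ppat, the first enzyme of purine synthesis (0.98), Ubl5 (0.97) and Kctd18 (0.97). The 4 control libraries, in order of replicate, gave 471.7, 417.4, 442.8 and 501.8 normalized counts of Cmtm4, and the knockdown libraries gave 199.1, 84.8, 110.7 and 178.2, so its knockdown libraries split into the same lower and upper couples as those of Elavl1. The most opposed were Ltbr, the lymphotoxin beta receptor (r = −0.97), the protease inhibitor gene Timp1 (−0.97), Glipr1 (−0.97), Abtb1 (−0.96) and the prostaglandin E synthase gene Ptges (−0.96). Since genes were picked here for their likeness to Elavl1 over these same libraries, a shared split such as that of Cmtm4 is what the ranking selects. The values also share libraries and the group difference itself, so they are a description and carry no test.

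Of 25 other proteins described as binding AU-rich or related elements, 21 were tested, 3 rose and 1 fell, or 19.0% beside 15.2% of all tested genes. The list median was 0.15. Igf2bp2 and Igf2bp3, which bind and stabilise mRNAs, rose by 1.63 and 0.71 (limma with the block, adjusted p = 0.0249 and 0.0129). Igf2bp2 measured 129.2, 206.0, 447.0 and 246.1 normalized counts in knockdown libraries 1 to 4 against 114.9, 49.8, 76.7 and 70.8 in their controls, so pair 1 moved by 0.17 and the others by 1.78 or more. Without pairs 1 to 4 in turn, 4, 0, 1 and 0 genes of this list passed. Those fits called 23.9%, 0.523%, 4.41% and 0% of all tested genes.

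The list of deadenylation, decapping and decay genes gave 7 rises and 1 fall among 42 tested genes, with a list median of 0.16. That is again 19.0%, beside 15.2% of all tested genes. Not all of its genes, nor all of those that rose, encode enzymes. Pan2 and Pan3, the subunits of a deadenylase that shortens the poly(A) tail, both rose. The mean of Pan2 was 69.7 ± 23.5 normalized counts in ShCTR and 117.6 ± 48.5 in ShHuR (SD, n = 4), which is 0.71 on the log2 scale (limma with the block, adjusted p = 0.0246). Normalized counts of Pan3 read 263.4, 224.8, 293.1 and 296.6 across the controls and 334.3, 333.3, 504.5 and 434.5 across the matching knockdown libraries, without overlap, a log2 change of 0.56 (limma with the block, adjusted p = 0.0223). Tristetraprolin is known to recruit the CCR4-NOT deadenylase complex. Of its subunit genes Cnot6 and Cnot11 rose by 0.48 and 0.41 (limma with the block, adjusted p = 0.0306 and 0.0481). The rise of Cnot11 was missed by blocked edgeR (adjusted p = 0.0528) and blocked DESeq2 (0.0651). Leaving out pair 1, its adjusted p in blocked limma was 0.0699. Cnot1, Cnot2, Cnot3, Cnot4, Cnot6l, Cnot7, Cnot9 and Cnot10 did not pass. Cnot8, which like Cnot6 encodes a catalytic subunit, fell by 0.39, from 611.8 to 687.4 in ShCTR to 483.1 to 518.1 in ShHuR, without overlap. Scaling each library to the same total left Cnot8 at −0.27 (limma with the block, adjusted p = 0.136). Exosc4, an exosome subunit gene, rose by 0.46 (limma with the block, adjusted p = 0.0461, and 0.0518 in DESeq2 with the block). Without pairs 1 to 4 in turn, 9, 0, 0 and 0 genes of this list passed. Those fits called 23.9%, 0.523%, 4.41% and 0% of all tested genes.

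Regulators of HuR and of the ZFP36 proteins split evenly, with 3 higher and 3 lower among 25 tested rows of 24 symbols (24.0%, median −0.09). Over all tested genes the share was 15.2% (7.16% higher, 8.05% lower). Mapkapk2 encodes MK2, the kinase downstream of p38 that phosphorylates tristetraprolin and so holds back its decay activity. Controls 1 to 4 held 2397, 1309, 1265 and 1471 normalized counts, and knockdown libraries 1 to 4 held 1440, 763.5, 661.2 and 978.3. Each ShHuR library was lower than its control, although ShHuR replicate 1 lay within the ShCTR range. The log2 change was −0.76 (SE 0.10; limma with the block, adjusted p = 0.0102). Mapkapk3, for the related kinase MK3, moved the other way, from 349.1 ± 107.5 to 504.5 ± 113.8 normalized counts (SD, n = 4; log2 change 0.55; limma with the block, adjusted p = 0.0276). Mapk14, which encodes p38 alpha, had a log2 value of 0.11 and did not pass (limma with the block, adjusted p = 0.487).

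The transportins, which carry HuR into the nucleus, also went in opposite directions. Tnpo1 rose from 2552 ± 209.7 to 3608 ± 706.9 normalized counts (SD, n = 4; log2 change 0.48; limma with the block, adjusted p = 0.0347). Tnpo2 fell from 2542 ± 374.4 to 1887 ± 523.5 (log2 change −0.45; limma with the block, adjusted p = 0.0465). Carm1, the methyltransferase that modifies HuR, fell by 0.50 (blocked limma, adjusted p = 0.0369; leaving out pair 1, 0.054). Prkcd, a protein kinase C that phosphorylates HuR, rose by 0.66 (limma with the block, adjusted p = 0.0125). Both had groups without overlap. After scaling to the same total, Tnpo2 was at −0.33 and Carm1 at −0.37, with adjusted p-values in limma with the block of 0.0853 and 0.072. Without pairs 1 to 4 in turn, 8, 0, 2 and 0 genes of the list of regulators passed. The 2 without pair 3 were Mapkapk2 and Prkcd. Of all tested genes those fits called 23.9%, 0.523%, 4.41% and 0%.

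**Figure D3:**
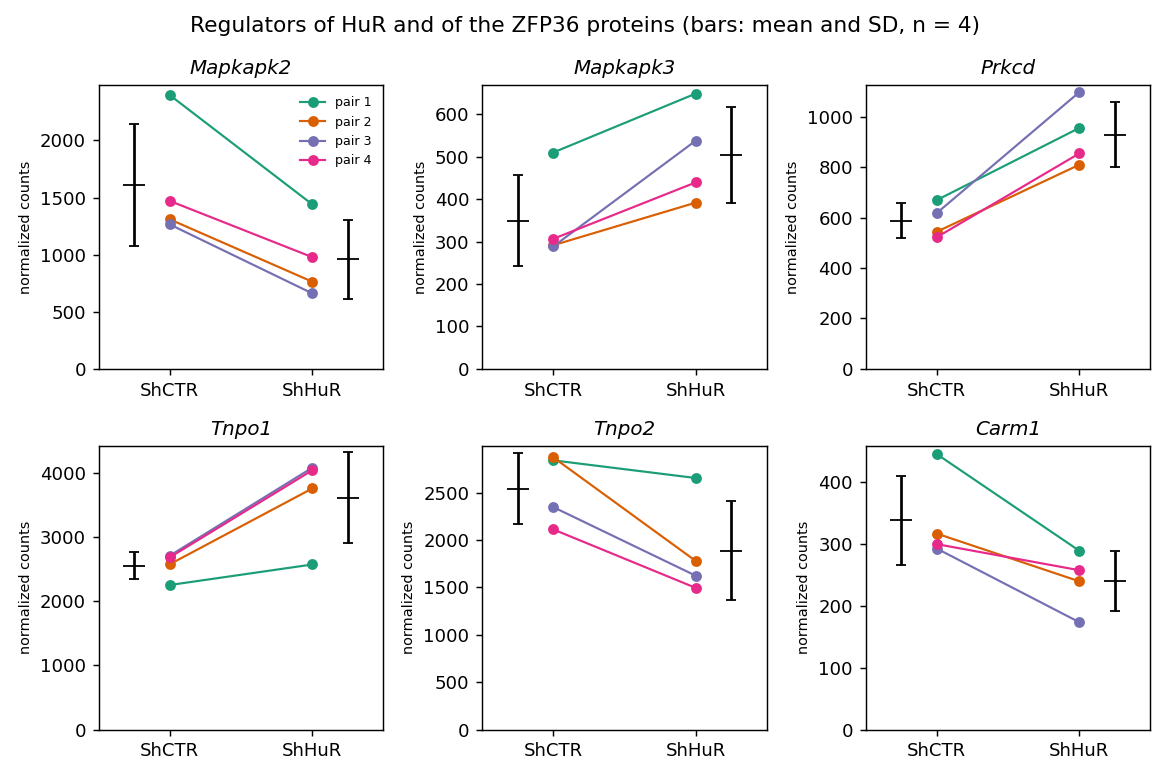
Normalized counts (linear axes from 0) of 6 genes that act on HuR or the ZFP36 proteins, by library, with lines joining pairs and black marks for mean and SD (n = 4). Mapkapk2, Tnpo2 and Carm1 are lower and Mapkapk3, Prkcd and Tnpo1 higher in ShHuR in all 4 pairs.

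Among transcripts known to carry AU-rich elements, 10 rose and 3 fell of 29 tested, 44.8% beside the 15.2% of all tested genes, with a median of 0.48. This list, like the other lists, was chosen with earlier results of these data known. The share therefore describes the list and cannot serve as a test of an excess. The list mixes targets of HuR with targets of tristetraprolin, and many of its members are also induced in inflammation. The largest rises were those of secreted factors: the chemokine gene Ccl20 by 2.86, the growth factor gene Csf3 by 2.79, Il11 by 2.60 and Csf2 by 2.56 (limma with the block, adjusted p = 0.0131, 0.0127, 0.0266 and 0.0355). The other 6 rises ran from 0.64 to 2.27. Ccl20 varied from 28.0 to 1599 normalized counts among controls and from 83.6 to 6484 after knockdown, with replicate 1 lowest in both groups. Csf2 was low, at 0 to 22.8 normalized counts in ShCTR and 0 to 170.3 in ShHuR, with both libraries of pair 1 at 0. Il11 was at 175.7 to 263.9 in ShCTR and at 209.7, 3180, 1963 and 1805 in ShHuR replicates 1 to 4, so pair 1 moved by 0.08 and the others by 2.89 or more. Bcl2, the anti-apoptotic gene and a known HuR target, was at 21.2 ± 4.56 normalized counts in ShCTR and 7.50 ± 2.26 in ShHuR (SD, n = 4), without overlap. Its log2 change was −1.40 (limma with the block, adjusted p = 0.0299). Bcl2 was low and reached the minimum of 10 for testing through the ShCTR libraries, where it is high, and Csf2 reached it mainly through ShHuR. Both are counted in the calls of this list, but neither call, nor the lack of overlap for Bcl2, is support for a change. Cxcl12 and Ccl7 fell by 1.29 and 1.24 (limma with the block, adjusted p = 0.0371 and 0.0271), and in pair 1 Cxcl12 was higher by 0.09.

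Several classical AU-rich transcripts did not pass. Ptgs2, which encodes cyclooxygenase 2, had a log2 value of 0.26 (limma with the block, adjusted p = 0.677), Fos −0.20 (limma with the block, adjusted p = 0.671) and Il6 1.03 (limma with the block, adjusted p = 0.102). Without pair 1 Il6 was at 1.27 and passed (limma with the block, adjusted p = 0.0494). Without pairs 1 to 4 in turn, 18, 0, 5 and 0 genes of this list passed. Of all tested genes those fits called 23.9%, 0.523%, 4.41% and 0%.

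**Figure D4:**
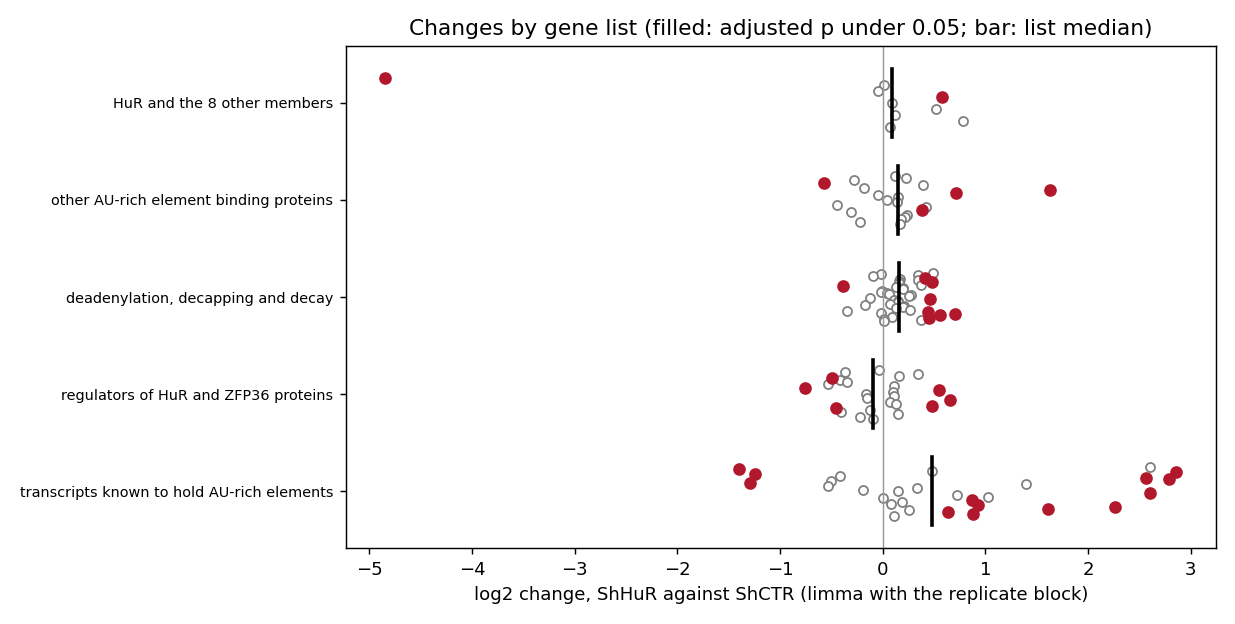
Log2 change of ShHuR against ShCTR (limma with the replicate block) for each tested gene of 5 lists; filled points have an adjusted p under 0.05 and black bars mark list medians. Elavl1 at −4.84 stands alone on the left, and the transcripts with AU-rich elements spread furthest to the right, up to 2.86.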

How the data were processed

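RNA from 8 libraries was rRNA-depleted and sequenced as stranded total RNA, per the labels' protocols. Aligner, counter, build and annotation were not given in the sources used here. Overlapping, antisense and pseudogene-bearing genes are therefore uncertain. The deposited values are a normalized signal, gene counts the authors divided by 1 factor per library, per the file headers and the values. In every column 100% of nonzero values were whole multiples of 1 step to within 0.01 read, which gave the reads used for edgeR 4.0.16 and DESeq2 1.42.0. The authors also deposited log2 fold changes and adjusted p-values, under column names that DESeq2 writes, per the file headers. Gene identifiers in the table of all genes do not match its symbols, so symbols were used, and 21 symbols turned into dates stayed unnamed.

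Values were tested as log2(value + 1), which understates the change of low genes, with limma 3.58.1 (R 4.3.3, mean-variance trend, two-sided). A gene was tested when 4 of 8 libraries reached 10, which left 11847 and dropped 1689, and all 9 genes described passed. The fit chosen as main had no block. Replicate numbers were taken to pair the libraries because deviations from group means correlated, across genes, at 0.87, 0.78, 0.63 and 0.77 for numbers 1 to 4, all over 0.1. The highest correlation with another number was 0.62 for numbers 2 and 3, so number 3 matched its own number barely better than another. The meaning of a number is absent from the labels. Blocked values are therefore printed. Members, lists and named-gene rules were chosen with earlier results of these data known. Named genes are the members, up to 4 called genes per direction in each list, and the 5 most and least like Elavl1. Several other list genes were named after their values were seen (Mapk14, Ptgs2, Fos, Il6 and the Cnot genes other than Cnot6 and Cnot8). No protein sequences were used, so paralogs were not aligned. Some genes that this rule names are not reported here.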

Additional observations from a re-analysis of the deposited data

Results flagged for a closer look

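Hnrnpdl in ShCTR replicate 1 stood apart from its group, at 1388 normalized counts against 544.2 to 574.8 in the other 3 libraries, a gap of 0.964 of the group's range. Hnrnpdl in ShHuR replicate 1 did so too, at 2143 against 727.1 to 936.9, a gap of 0.852 of the range. Both gaps are above Dixon's 95% limit for 4 samples. In all, 20 groups of 4 values were examined, and chance alone passes the limit in about 1 in 20. Both libraries carry replicate number 1. In limma with the block Hnrnpdl passed with all pairs and without pair 1, and it did not pass in limma without the block. There, leaving out ShCTR replicate 1 put its log2 value at 0.90 (adjusted p = 0.518), and leaving out ShHuR replicate 1 put it at 0.23 (adjusted p = 0.731).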

How the results depend on the processing

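Without the block, other pseudocounts, filters, no trend, other scalings and edgeR also called 0 genes and 0 of the 9 members in limma or edgeR, and DESeq2 called 248 genes and 1 member, Elavl1. The replicate block gave 1802 genes and 2 members. With the block the calls were 1787 genes at pseudocount 0.5, 1831 at pseudocount 5, 1770 without a filter, 1701 with a filter at 50, 573 without a trend, 1648 after quantile normalization, 2036 after scaling to the same total, 1845 in edgeR and 2053 in DESeq2. The members called numbered 1 without a trend, 3 after scaling to the same total and in DESeq2, and 2 in the others. The settings of pseudocount, filter and trend with the block were chosen after seeing the data.

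Elavl1 had log2 values with the block of −4.84 as fitted, without a filter, with a filter at 50 and without a trend, −4.89 and −4.51 at pseudocounts 0.5 and 5, −4.87 and −4.73 after quantile and total scaling, −4.50 in edgeR and −4.88 in DESeq2, and −4.29 in DESeq2 without the block. Leaving out 1 library without the block moved it between −5.37 and −4.30, and leaving out a pair with the block gave −5.42, −4.25, −4.47 and −5.23 for pairs 1 to 4. The genes called were 0 to 105 without 1 library (105 without ShHuR replicate 1) and 2831, 62, 523 and 0 without pairs 1 to 4, and the members called 0 to 1 and 3, 1, 1 and 0. With the block the lists of other binding proteins, decay genes, regulators and AU-rich transcripts had 4, 8, 6 and 13 calls, against 0 each without it. Leaving out a pair gave 0 to 4, 0 to 9, 0 to 8 and 0 to 18.

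Signs turned only for members that did not pass. Elavl2 was at −0.0057 after quantile normalization, with and without the block, Hnrnpd at 0.072 after scaling to the same total, with and without it, and Zfp36l1 at −0.075 in edgeR and −0.049 in DESeq2 without it. Leaving out 1 library took Elavl2 from −0.50 to 0.46, Zfp36l1 from −0.29 to 0.43, Hnrnpd from −0.14 to 0.072, Khsrp from −0.044 to 0.28 and Tial1 from −0.011 to 0.21. Leaving out a pair with the block turned Hnrnpd (0.054 without pair 1), Elavl2 (−0.051 and −0.098 without pairs 2 and 3) and Zfp36l1 (−0.040 without pair 4). The cause was not tested. Zfp36, Tia1 and Hnrnpdl kept a positive sign under all 31 alternatives. Few reads limit Elavl2 in all libraries and Elavl1 in ShHuR.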
